A study of Mus musculus with 6 samples.

Results

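Cytosolic ribosomal protein genes were followed in long-term haematopoietic stem cells, the rare bone marrow cells that renew themselves and give rise to all blood lineages. The members were all genes with a symbol that starts with Rpl or Rps and a number, together with Rplp0, Rplp2 and Rpsa, leaving out the S6 kinases and pseudogenes. A gene counted as measured where at least 1 probe set, the group of probes that reads a transcript on the array, named that gene alone. This gave 50 members among 18193 measured genes, 26 with large subunit symbols and 24 with small subunit symbols. The members were chosen by name, and where a gene had several such probe sets the brightest, by its mean over all arrays, stood for it.

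The cytosolic ribosome is built from a large and a small subunit, each a shell of proteins around ribosomal RNA. The small subunit reads the messenger RNA, and the large subunit joins the amino acids and holds the stalk, a flexible arm that recruits translation factors. Messenger RNAs of these proteins start with a pyrimidine-rich stretch, the TOP motif, through which growth signals control their translation together. In blood formation the family is known because loss of a single copy of some members causes Diamond-Blackfan anaemia, a failure of red cell production, and because haematopoietic stem cells keep protein synthesis low.

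The cells were sorted from mouse bone marrow as lineage-negative, Sca-1 and c-kit positive, CD48-negative and CD150-positive, and were given no treatment. The study compared 3 wildtype (Irf8+/+) samples with 3 knockout (Irf8-/-) samples, all at 3 weeks; the labels do not say what the weeks count, and they name no sex, allele or batch. Irf8 encodes a transcription factor without which monocytes and dendritic cells form poorly. RNA was amplified from small amounts and read on Affymetrix Mouse Genome 430 2.0 arrays, so each value below is a log2 expression value of a probe set. The labels call the samples biological replicates without naming animals, so p-values measure the spread between these samples.

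Array medians ran from 4.85 to 4.96 over the 6 arrays, and differences between knockout and wildtype had a median standard error of 0.46 over all genes. The brighter Irf8 probe set read 4.98, 6.43 and 5.16 in wildtype and 4.91, 6.39 and 6.50 in knockout (adjusted p = 0.92 in limma). No label says which part of Irf8 was deleted or whether these probes lie in it. Irf8 therefore does not check the labels, and "knockout" below means the arrays labelled so. Of 10 stem cell markers 8 were measured, and 7 of these had a mean above the median gene level of 5.81. The list mean ran from 8.36 to 8.92 in wildtype and from 7.27 to 9.13 in knockout, with the lowest value in knockout replicate 3. Cd48, which the sort selects against, read 4.54, 4.31 and 3.13 in wildtype and 7.60, 9.42 and 3.55 in knockout. All 11 measured neutrophil markers had a higher mean in knockout, 4 of them without overlap. Their summed level, taken as the list mean, was 6.47 to 7.37 in wildtype and 8.21 to 11.0 in knockout. The list mean of 4 erythroid markers was lower in knockout, 4.02 to 4.98 against 5.24 to 5.82, with Klf1, a red cell transcription factor, lower without overlap. Of 5 monocyte and dendritic markers 4 had a higher mean in knockout and 3 were higher without overlap, where 6.67% of all genes were. These 3 were the receptor Flt3 (2.45), Cd14 (0.57) and Itgax (0.43), and the last 2 had means of 4.51 and 4.56, below the median gene level. Csf1r had a lower mean in knockout (-0.19) with overlap. By contrast, 0 of 4 B cell and 0 of 5 T cell markers had groups apart. The part of these other-cell signals in the ribosomal protein values was not tested, and in sorted bulk samples fewer cells of a type and less RNA per cell cannot be told apart. Xist, the RNA of the silenced X chromosome, read 7.60, 3.36 and 11.21 in wildtype and 10.62, 3.34 and 3.81 in knockout. Wildtype replicate 3 and knockout replicate 1 were highest, and wildtype replicate 1 lay between these and the remaining arrays.

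The members covered 43 of the 77 standard subunits listed, 22 of 46 in the large and 21 of 31 in the small subunit. The other 34 standard subunits, among them Rpl3, Rpl5 and Rplp1, were not measured by a probe set of their own, and 27 of these appeared only on probe sets that name several genes. Another 6 members were paralogs of standard subunits, namely Rpl3l, Rpl7l1, Rpl22l1, Rpl39l, Rps27l and Rps4l. The last, Rps19bp1, encodes a binding partner of the small subunit protein RPS19 and is no subunit. Most members read near the top of the scale. A mean above 12 was seen in 35 members, 18 large and 17 small, a level that 152 of all genes reached and that was chosen after the values were seen. The highest value in the whole table, 14.09, belonged to Rpl41, the shortest ribosomal protein, in wildtype replicate 3. At the other end, 6 members had a mean below the median gene level of 5.81, and 2 of these, Rpl39l and Rps16, lay below the lower quartile of 4.18.

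No ribosomal protein gene differed between the groups beyond the threshold, and most of the bright members read slightly lower in the knockout arrays. In limma's moderated test with Benjamini-Hochberg adjustment over all genes, 0 of 50 members and 0 of 18193 genes (0% called) had an adjusted p under 0.05, and the smallest adjusted p among members was 0.887. At an unadjusted p under 0.05 there were 6 members, 5 lower and 1 higher in knockout, all of the large subunit. Over all genes 2.44% were lower and 2.4% higher at that p, 880 genes or 4.84% together. All 6 members had a mean above 12. Of the 117 genes above 12 that are not members, 15 had such a p, 8 lower and 7 higher. When the moderation did not follow the level of the gene, no member reached that unadjusted level. The knockout mean was below the wildtype mean for 35 members (70%) and above it for 15, while over all genes 43.4% were below. The median difference, knockout minus wildtype, was -0.096 over the members and 0.066 over all genes.

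The direction was more one-sided among bright members. Among the 35 members with a mean above 12, 27 (77.1%) were lower in knockout and 8 higher, with a median difference of -0.095 and a range from -0.46 to 0.17. Among the 117 other genes at that level, 70 (59.8%) were lower, with a median of -0.038. Bright members were also measured more tightly: their median standard error was 0.098, against 0.144 for the other bright genes and 0.431 for the 15 members with a mean of 12 or less. These 15 were split, 8 lower and 7 higher, over a range from -1.11 to 1.45, with a median of -0.13. Whether the bright members differ from the other bright genes was not tested.

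All 3 knockout arrays lay below all 3 wildtype arrays for 5 members (10%), against 4.25% of all genes, and above them for another 5 (10%), against 6.67% of all genes. The 5 lower members were Rplp2, Rpl11, Rpl7a, Rpl22 and Rpl27, all large subunit genes with a mean above 12. The 5 higher members were Rpl13a, Rpl12, Rpl39 and Rpl3l of the large subunit and Rps29 of the small subunit, and only Rpl13a and Rps29 among them had a mean above 12. Among the 18 bright large subunit genes 5 were lower without overlap and 1 higher; among the 17 bright small subunit genes 0 were lower and 1 higher. Of the 117 other genes above 12, 9 were lower and 9 higher without overlap (7.69% each).

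**Figure D1:**
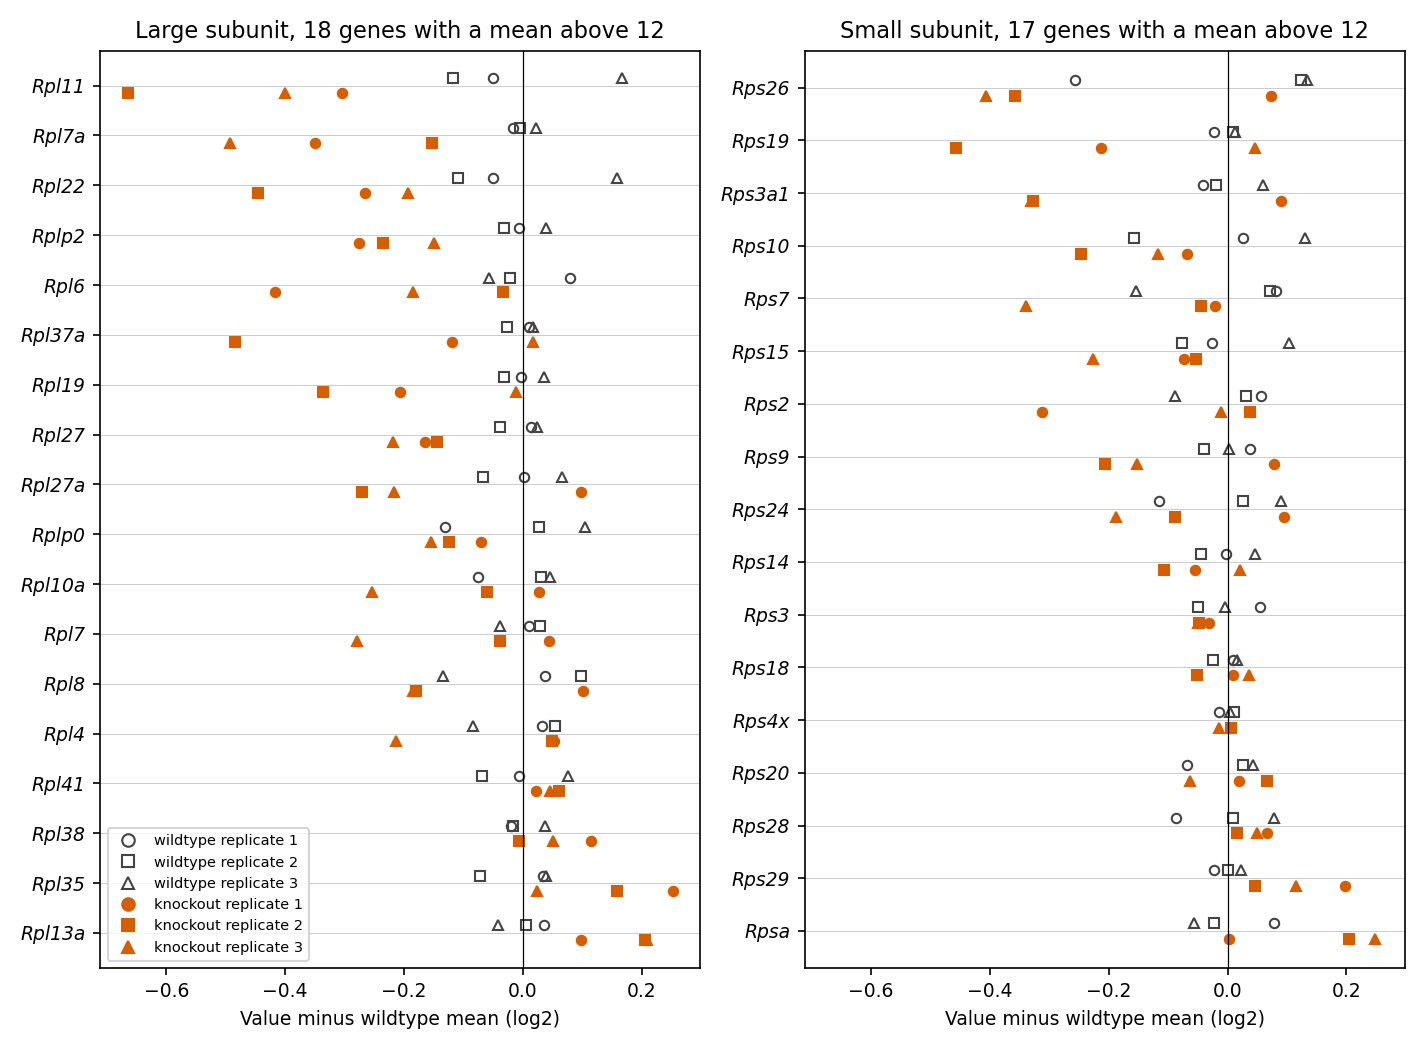
Log2 value minus the wildtype mean of the same gene (horizontal axis) for the 35 ribosomal protein genes with a mean above 12, with large subunit genes on the left and small subunit genes on the right. Each point is 1 array, open for wildtype and filled for knockout, and the vertical line at 0 is the wildtype mean; the 3 filled points lie left of the 3 open points for Rpl11, Rpl7a, Rpl22, Rplp2 and Rpl27, and right of them for Rpl13a and Rps29.

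Rpl11 had the widest difference among the bright members. Its protein forms a particle with RPL5 and the small 5S ribosomal RNA, which joins the large subunit and can also bind MDM2, the regulator of p53. Rpl11 read 13.10, 13.03 and 13.32 in wildtype and 12.85, 12.48 and 12.75 in knockout. The groups did not overlap, with knockout replicate 2 lowest and wildtype replicate 3 highest, and the difference of -0.46 (SE 0.13) is a 1.37-fold higher level in wildtype. Rplp2 encodes an acidic protein of the stalk. It read 13.87, 13.84 and 13.91 in wildtype and 13.60, 13.64 and 13.72 in knockout, a difference of -0.22 (SE 0.052) or 1.16-fold. Its 3 wildtype values lay close together, all above the highest knockout value, and it had the smallest unadjusted p of all members.

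Rpl7a, a large subunit protein, read 12.89, 12.90 and 12.93 in wildtype and 12.56, 12.75 and 12.41 in knockout (-0.33, SE 0.11). Wildtype was tight and knockout spread wider, with knockout replicate 3 lowest. Rpl22, an RNA-binding subunit known for its role in T cell development, read 13.37, 13.31 and 13.57 in wildtype and 13.15, 12.97 and 13.22 in knockout (-0.30, SE 0.10). Rpl27, in which mutations have been found in Diamond-Blackfan anaemia, read 13.11, 13.05 and 13.12 in wildtype and 12.93, 12.95 and 12.87 in knockout (-0.18, SE 0.068). In each of these 3 genes the highest knockout array stayed below the lowest wildtype array, and all 5 genes had an adjusted p of 0.887. Each kept this separation when arrays were centred on their median or quantile normalized. Rpl11, Rpl7a and Rplp2 have 1 probe set each, Rpl27 also kept it when its probe sets were averaged, and Rpl22 did not, at a difference of -0.19.

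Promoter stretches are shown for 3 lower genes and for Rpl13a, which read higher. The 3 are the lower genes with the longest pyrimidine run inside a window of 30 bases on either side of the start. A run of C and T around the transcription start, the source of the TOP motif, is the feature this family is known for. Each stretch holds the 90 bases before the start that RefSeq annotates and 30 bases from it on, 5′ to 3′ on the transcribed strand, in assembly GRCm38.p6. Capitals mark the longest run of C and T inside that window, and a run that crosses the window edge is cut there. The marked runs are 10, 17, 21 and 14 bases long. With the annotated start base as 0, they begin at -5, 13, -14 and 2. The run of Rpl11 lies wholly after the start and reaches the end of the window and of the stretch, so its length is a minimum. Most of the run of Rpl7a lies before the start.
Rplp2 (chr7:141447561-141447680, plus strand): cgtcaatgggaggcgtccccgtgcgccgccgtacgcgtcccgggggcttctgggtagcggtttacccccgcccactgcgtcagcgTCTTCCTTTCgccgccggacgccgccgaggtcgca
Rpl11 (chr4:136053364-136053483, minus strand): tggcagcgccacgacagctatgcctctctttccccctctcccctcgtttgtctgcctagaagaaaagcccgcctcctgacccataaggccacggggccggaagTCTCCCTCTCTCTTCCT
Rpl7a (chr2:26910717-26910836, plus strand): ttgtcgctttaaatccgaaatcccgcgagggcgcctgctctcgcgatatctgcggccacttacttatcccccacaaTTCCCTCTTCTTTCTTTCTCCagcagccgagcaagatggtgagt
Rpl13a (chr7:45128716-45128835, minus strand): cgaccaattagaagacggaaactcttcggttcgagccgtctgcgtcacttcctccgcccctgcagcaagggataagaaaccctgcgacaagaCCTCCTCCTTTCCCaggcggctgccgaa

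Run length varied among the lower and among the higher genes. Rpl22 and Rpl27, both lower, had a longest run of 5 bases by the same count. The run of Rpl22 was cut at the window edge, with more C and T directly before it, so its whole run is longer. Rpl12, Rpl39 and Rpl3l, all higher, had 7, 9 and 5, and Rps29 had no entry in the promoter table. Of the 50 members 44 matched a promoter in the RefSeq table. A run of at least 8 pyrimidines within 30 bases of the start was present in 22 of these 44 (50%), against 22.8% of all 27025 promoters. Other motifs were searched on both strands of the whole window of 300 bases, 250 before and 50 after the start, and none of them contains another. CCGGAAG, a site of the ETS family, was present in 47.7% of members and 9.12% of all promoters. The GC box GGGCGG was present in 56.8% and 35.9%, and AAGATGG, a core of the YY1 site, in 15.9% and 6.48%. TATAAA was present in 11.4% and 14.2%, CACGTG in 6.82% and 7.24%, and CCAAT in 27.3% and 37.9%. These are matches of letters in 1 window per gene and not evidence of binding.

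Among the genes that read higher in knockout, Rpl13a and Rps29 were bright and differed little, and Rpl12 differed most. Rpl13a, whose protein can leave the ribosome and repress translation of inflammatory messages after interferon, read 13.12, 13.09 and 13.04 in wildtype and 13.18, 13.29 and 13.29 in knockout (0.17, SE 0.067). The lowest knockout array lay 0.06 above the highest wildtype array in this probe set, but the other 3 probe sets of the gene were lower in knockout, 1 of them without overlap, and their mean with it gave -0.20. Rps29, a small zinc-binding subunit mutated in some families with Diamond-Blackfan anaemia, read 13.58, 13.60 and 13.62 in wildtype and 13.80, 13.65 and 13.72 in knockout (0.12, SE 0.055). Here the gap between the groups was 0.02, and under quantile normalization the groups overlapped at a difference of 0.024.

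Rpl12, which forms the base of the stalk, was much dimmer. It read 8.19, 8.45 and 7.11 in wildtype and 8.58, 9.03 and 10.50 in knockout, a difference of 1.45 (SE 0.69) or 2.74-fold. Knockout replicate 3 lay above the other knockout arrays, the difference without it was 0.89, and the gene had the widest range of all large subunit members, 3.39. Rpl39, a short protein that lines the exit tunnel, read 6.76, 6.94 and 6.41 in wildtype and 7.04, 7.11 and 7.19 in knockout (0.41, SE 0.43). Rpl3l, the paralog of Rpl3 that is typical of muscle, read 4.77, 4.61 and 4.87 in wildtype and 4.88, 5.06 and 5.31 in knockout, with a gap of 0.01. Its level lay below the median gene, and neither it nor Rpl39 had a difference above 2 standard errors.

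Of the 4 stalk genes 3 were measured. Rplp0 and Rplp2 had lower means in knockout, and only Rpl12, read by 1 dim probe set (mean 8.64), had a higher mean. Rplp2 was lower without overlap, Rpl12 higher without overlap, and Rplp0, which anchors the acidic proteins, read 12.29, 12.45 and 12.53 in wildtype and 12.36, 12.30 and 12.27 in knockout. The Rplp0 groups overlapped at a difference of -0.12 (SE 0.11). Rpl35, next to the tunnel exit, read 13.63, 13.52 and 13.63 in wildtype and 13.85, 13.75 and 13.62 in knockout (0.14), with knockout replicate 3 among the wildtype values. The other probe sets of Rpl35 with a mean above 12 differed by 0.049, 0.030, -0.037 and -0.26, all with overlap, so its direction depends on the probe set. Rpl38, known for its part in translating Hox messages, had the narrowest range of the large subunit, 0.134 over the 6 arrays, and a difference of 0.052.

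Small subunit genes differed less. Their median difference was -0.077 over all 24 and -0.061 over the 17 bright ones, against -0.12 for both sets of the large subunit; this contrast of medians was not tested. With the probe sets of a gene averaged the small subunit median turned to 0.0019, and without probe sets of the shared s and x types it was -0.14. Rps4x, an X-linked subunit, read 12.86, 12.89 and 12.88 in wildtype and 12.88, 12.88 and 12.86 in knockout, and its range of 0.025 was the narrowest of all 18193 genes. Rpsa, which is also known as a laminin receptor, read 13.64, 13.54 and 13.51 in wildtype and 13.57, 13.77 and 13.81 in knockout (0.15, SE 0.079). Knockout replicate 1 lay between wildtype values, whereas the other 2 knockout arrays lay above all of them. Rps25 had the widest range of all members, 5.12, with 5.96, 8.79 and 9.41 in wildtype and 11.09, 6.65 and 9.20 in knockout. Its spread within each group exceeded the difference of 0.92 (SE 1.35). Rps16 read 3.12, 2.79 and 3.07 in wildtype and 3.50, 3.02 and 4.10 in knockout, near the bottom of the table, where the lowest value was 1.41.

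Of 20 genes listed for inherited disorders of ribosomal proteins, 13 were measured, and 9 of these had a lower and 4 a higher mean in knockout, with a median of -0.14. Rpl11 and Rpl27 were lower and Rps29 higher without overlap, and 0 of 13 passed the test. Rps19, the gene most often mutated in Diamond-Blackfan anaemia, read 12.39, 12.42 and 12.43 in wildtype and 12.20, 11.96 and 12.46 in knockout (-0.21, SE 0.15). The wildtype values were nearly equal, and knockout replicate 3 lay above them. Rps14, whose loss underlies the anaemia of a myelodysplastic syndrome, read 12.84, 12.79 and 12.88 in wildtype and 12.78, 12.73 and 12.86 in knockout (-0.047, SE 0.080). Rps26, which contacts the messenger RNA upstream of the start codon, read 12.24, 12.62 and 12.63 in wildtype and 12.57, 12.14 and 12.09 in knockout (-0.23, SE 0.18), with 1 array of each group among the values of the other. The differences of Rps7, Rps10 and Rps24 were -0.14, -0.14 and -0.061, that of Rps28 was 0.044 and that of Rps27 -0.23, all with overlapping groups.

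Paralogs were dimmer and more variable than most standard subunits, and 5 of the 6 measured had a lower mean in knockout. Rpl7l1 read 8.86, 9.71 and 10.43 in wildtype and 7.66, 8.70 and 9.32 in knockout, a difference of -1.11 (SE 0.64) with overlap in the middle of the range. Rpl7, its standard partner, differed by -0.091 with overlap in the probe set standing for it. Another bright probe set of Rpl7 was lower without overlap, by -0.27, and a dim probe set overlapped at -0.048. Rpl22l1, which can replace Rpl22 in the ribosome, read 11.49, 11.49 and 12.02 in wildtype and 11.59, 11.39 and 11.63 in knockout (-0.13, SE 0.205). So in this pair Rpl22 had groups apart and Rpl22l1 did not, a contrast that was not tested. Rps27l, a p53 target, read 11.43, 11.64 and 11.02 in wildtype and 11.10, 10.61 and 11.60 in knockout (-0.26, SE 0.31). Rps4l read 6.63, 5.75 and 4.62 in wildtype and 4.34, 4.71 and 5.08 in knockout (-0.95, SE 0.54), with wildtype replicate 1 highest. Rpl39l, known mainly from the testis, stayed between 2.70 and 3.49 in all 6 arrays.

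**Figure D2:**
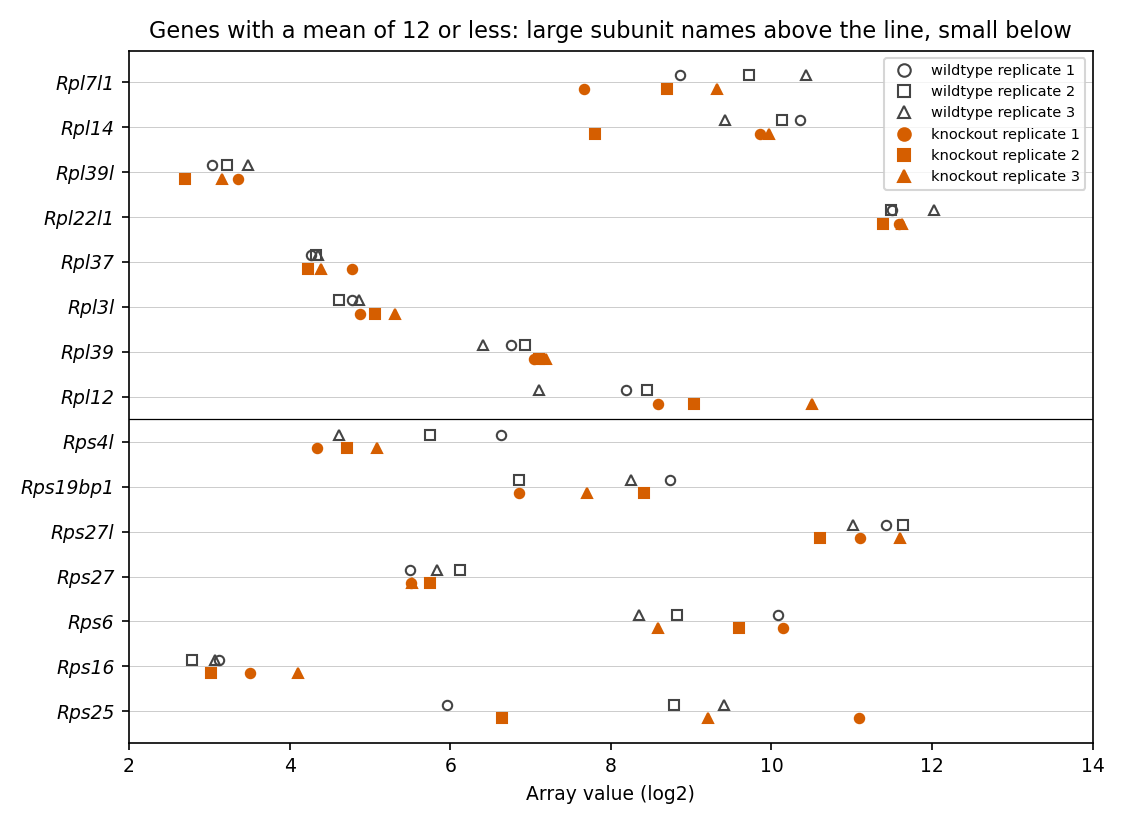
Log2 value on each array (horizontal axis) for the 15 ribosomal protein genes with a mean of 12 or less, open points for the 3 wildtype and filled points for the 3 knockout arrays. The groups lie apart only for Rpl12, Rpl39 and Rpl3l, with knockout higher, and Rps25 spans the widest range, 5.12.

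The arrays of a group did not share the pattern equally. Knockout replicates 2 and 3 held the lowest value for 15 and 13 of the 50 members, knockout replicate 1 for 6, and the 3 wildtype arrays for 7, 4 and 5. The highest value fell on wildtype replicate 3 for 17 members and on knockout replicate 1 for 12. The members' median deviation from the mean of the 6 arrays was 0.027, 0.046 and 0.051 in wildtype and 0.0044, -0.053 and -0.034 in knockout. All wildtype values thus lay above all knockout values, with knockout replicate 1 close to wildtype. For the 117 other genes above 12 it was 0.056, 0.0031 and 0.041 in wildtype and 0.030, 0.024 and -0.055 in knockout, with knockout replicate 3 lowest. Over all genes the same deviation was -0.082, -0.029 and -0.026 in wildtype and -0.0073, -0.079 and 0.12 in knockout. Knockout replicate 3, where neutrophil markers were highest, had the lowest mean correlation with the other arrays, 0.845 against 0.873 to 0.893 (Pearson, across genes, which are not independent replicates). Without knockout replicate 3, 31 of 50 members were lower in knockout, the large subunit median was -0.092 (and -0.060 without knockout replicate 2) and the small subunit median -0.052, and the median over all genes was 0.0027.

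The balance of the subunits was read on each array as the mean of the large subunit members minus the mean of the small subunit members. Over all 50 members it was -0.033, 0.023 and 0.0095 in wildtype and -0.13, -0.031 and 0.045 in knockout, with overlapping groups and a difference of -0.039 that turned to 0.0073 without knockout replicate 1. Over the 35 bright members, a set chosen after the values were seen, it was 0.14, 0.12 and 0.13 in wildtype (mean 0.131 ± 0.013, SD, n = 3) and 0.063, 0.075 and 0.068 in knockout (mean 0.069 ± 0.0062, SD, n = 3). Here the groups lay apart, and the 3 arrays of each group lay close together. The difference of -0.062 is small. The 5 lower members described above and the higher Rpl13a enter the large subunit mean only, and the higher Rps29 enters the small subunit mean only. With probe sets of a gene averaged the difference was -0.11, and without the s and x types -0.20, larger in the same direction but with overlapping arrays, so the balance depends on which probe set stands for a gene.

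**Figure D3:**
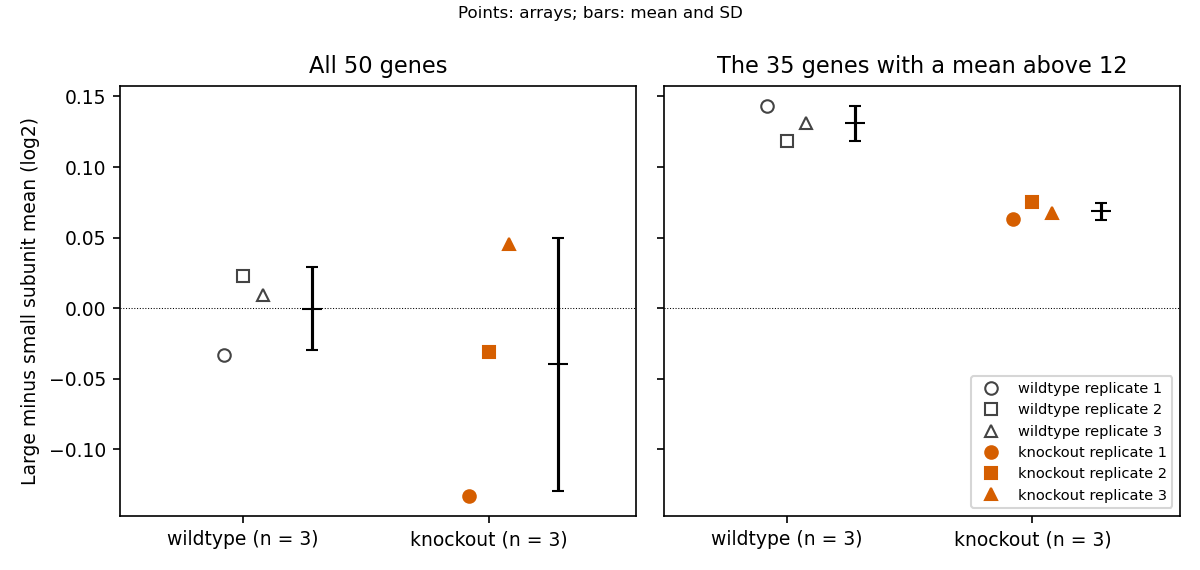
Mean of the large subunit genes minus mean of the small subunit genes on each array (vertical axis, log2), for all 50 members and for the 35 with a mean above 12; each point is 1 array, and the bar beside each group is its mean with the SD of its 3 arrays. For all members the groups overlap, and for the bright members wildtype lies between 0.12 and 0.14 and knockout between 0.063 and 0.075.

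Several probe sets read the same gene for 24 of the 50 members, 106 probe sets in all. Bright probe sets of a gene mostly moved alike: for the 16 members with more than 1 probe set above 12 the median gap between their highest and lowest difference was 0.085, and 2 members had both signs. Of all 63 bright probe sets 46 were lower and 17 higher in knockout, 9 lower and 5 higher without overlap. Among all 152 genes above 12, 63.8% were lower, 9.21% lower without overlap and 7.24% higher without overlap. The second bright probe set of Rpl22 read 13.06, 13.05 and 13.24 in wildtype and 12.78, 12.52 and 12.71 in knockout, a difference of -0.45 without overlap. All 3 probe sets of Rps29 were higher without overlap, by 0.12, 0.051 and 0.081, and all are of the x type, in which some probes can match other transcripts. The other 2 probe sets of Rpl27 overlapped, at -0.099 and -0.045. The widest gap among bright probe sets, 0.56, was in Rps18, where an x type probe set read 13.13, 13.02 and 13.23 in wildtype and 12.82, 12.55 and 12.32 in knockout and the probe set standing for the gene differed by -0.0021; Rps18 was singled out here after its values were seen.

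Dim probe sets gave other answers. Of 43 at or below 12, 18 were lower and 25 higher in knockout, and 14 members had probe sets of both signs. In 6 members both signs occurred with a gap above 1. The widest was Rpl35, where the standing probe set differed by 0.14 and a dim probe set by 3.55, from 2.38, 2.46 and 2.90 in wildtype to 7.07, 2.82 and 8.51 in knockout. Rpl41 differed by 0.043 in its brightest probe set and by -1.47 in a dim probe set, Rps20 ranged from -0.31 to 0.92, Rps27l from -0.26 to 0.89 and Rpl7l1 from -1.11 to 0.51. Rpl13a, higher without overlap in its brightest probe set, was lower without overlap in another, which read 11.88, 11.60 and 11.68 in wildtype and 10.75, 11.13 and 11.09 in knockout (-0.73). Its other 2 probe sets differed by -0.11 and -0.15 with overlap, so the direction of Rpl13a depends on the probe set. Of the standing probe sets, 13 are of the x type and 1 of the s type, which several transcripts can share, and the table used here gives no detection call for any probe set.

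**Figure D4:**
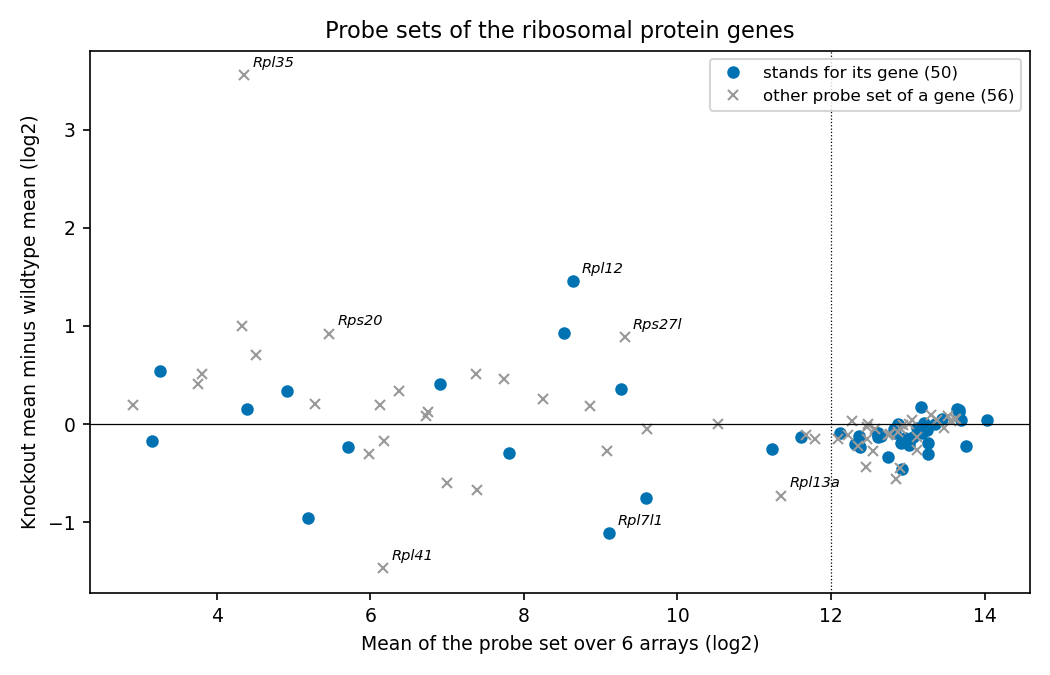
Mean over the 6 arrays (horizontal axis, log2) against the knockout minus wildtype difference (vertical axis, log2) of the 106 probe sets that name 1 ribosomal protein gene; filled points stand for their gene and crosses are its other probe sets. Right of the dotted line at 12 the differences lie close to 0 and 46 of 63 are below it, and at lower levels they spread from below -1 to 3.55, the dim probe set of Rpl35.

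Probe sets that name several genes, among them a ribosomal protein gene, were kept out of the members, and 110 of them carry most of the subunits that have no probe set of their own. Their median difference was -0.025, with 65 lower and 45 higher in knockout. Of the 75 with a mean above 12, 47 were lower, 21 of them without overlap, and 8 were higher without overlap. Among all 152 genes above 12, 63.8% were lower, 9.21% lower without overlap and 7.24% higher without overlap. The median difference of these 75 was -0.040, against -0.038 for the 117 genes above 12 that are not members and -0.095 for the bright members. These probe sets overlap in target with each other and with the members and are no separate evidence.

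Genes that work with the ribosomal proteins were read from lists, and 0 of their members passed the test. Fau, which encodes a small subunit protein fused to a ubiquitin-like protein, differed by -0.0049. Of 16 measured elongation factors and other genes with TOP messages, 12 (75%) were lower, with a median of -0.12, and 2 (12.5%) were lower without overlap. The median level of this list was 12.15. Among all 152 genes above 12, 63.8% were lower, with a median of -0.046, and 9.21% were lower without overlap. In the list Hnrnpa1, an RNA-binding protein, was lower without overlap (-0.45). Pabpc1, the poly(A) binding protein, overlapped by a narrow margin (-0.46, SE 0.19), and Eif4b, an initiation factor, was higher in mean (0.61). Of 39 measured ribosome biogenesis genes 26 were lower and 13 higher, with a median of -0.30, and 3 were lower and 3 higher without overlap (7.69% each, against 4.25% and 6.67% of all genes). Nop16, a nucleolar assembly factor, read 7.74, 7.51 and 8.98 in wildtype and 6.44, 5.06 and 5.24 in knockout (-2.49, SE 0.63). Nolc1, a nucleolar chaperone, went the other way, with 6.98, 9.19 and 9.07 in wildtype and 10.85, 9.88 and 10.75 in knockout (2.08, SE 0.70). Nop56, a core protein of the particles that methylate ribosomal RNA, was also higher without overlap, with 11.29, 11.49 and 11.21 in wildtype and 11.71, 11.98 and 11.79 in knockout (0.50, SE 0.17).

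Of 11 measured genes of RNA polymerase I, the enzyme that makes ribosomal RNA, 7 were lower, with a median of -0.56 and 2 lower without overlap, where 4.25% of all genes were. Polr1b, a core subunit, read 5.71, 6.32 and 6.39 in wildtype and 4.34, 5.48 and 4.26 in knockout (-1.44, SE 0.44). Myc, a transcription factor that drives ribosome production, read 12.47, 12.44 and 12.13 in wildtype and 12.45, 12.04 and 11.28 in knockout (-0.42), with overlapping groups and the lowest value in knockout replicate 3. Over 9 measured regulators of this production the median was -0.047, and Eif4ebp1, the repressor of cap-dependent translation that mTOR inactivates, was higher without overlap (0.78). The median standard errors of the biogenesis and polymerase lists, 0.55 and 0.64, were several times that of the bright ribosomal protein genes, so differences of equal size are less certain there.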

How the data were processed

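Sorted stem cell RNA from 3 wildtype and 3 knockout samples was amplified with the Ovation Pico WTA V2 kit and hybridised to 1-colour arrays, per the labels' protocols. The authors deposited log2 values of each probe set on each array. The submitters' processing notes name Partek, RMA and Affymetrix Expression Console and give no version; RMA subtracts background, brings arrays to a common scale and combines the probes of a set, which compresses differences of dim probe sets. What test the authors ran is not given in the sources.

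Of 45037 probe sets, 34945 named 1 gene in the platform annotation, 932 several and 9160 were unnamed; 34741 matched RefSeq by Entrez number and 0 symbols changed. The brightest single-gene probe set by its mean over the 6 arrays stood for each of 18193 genes, with no filter on level. Samples were grouped by their titles. Knockout minus wildtype was fitted with limma 3.58.1 (R 4.3.3, lmFit and eBayes with a trend, two-sided), adjusted by Benjamini-Hochberg over all genes at 0.05, and the fit was tested on simulated data. Lists and groups of members were described by counts and medians, without a test. The members, lists and tests were chosen with earlier results of these data known.

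Genes named singly were members with groups apart, the 3 smallest p per subunit, stalk genes, paralog pairs, disease genes, members with discordant probe sets and the widest and narrowest ranges, and from other lists up to 3 genes by smallest p. Alternatives changed the moderation, array weights, probe set choice, level filter, scaling, replicate block and arrays included. The labels give no pairing of the samples beyond the replicate number, so no block was used. Promoters came from RefSeq (GRCm38.p6), the first listed start per gene. Protein sequences were not used here. Tables were prepared with Python 3.11.15, pandas 2.3.3 and numpy 2.4.6, and plots with matplotlib 3.10.9.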

Additional observations from a re-analysis of the deposited data

How the results depend on the processing

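The number of arrays limits every value, and dim probe sets vary most. No member passed the threshold in any alternative. Over all genes, the mean of probe sets called 1 gene against 0, Zfp229, which is no member and was seen only afterwards (-2.98, adjusted p = 0.047 in limma); the other settings called 0. With the replicate number as a block 0 genes passed and 838 had an unadjusted p under 0.05, against 880 without it. Same-numbered arrays had correlations of deviations of -0.024, -0.0093 and -0.011. These values cannot show whether such samples were prepared together, and a pairing would rest on the number alone.

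Leaving out 1 array in turn gave 6 to 10 lower and 5 to 8 higher members without overlap, as fewer arrays overlap less readily. Without probe sets of the s or x type 3 were higher. The shares of all genes given above hold for all 6 arrays and the main choice of probe sets. These counts therefore have no like share of all genes beside them and say nothing about the members as a group. The small subunit median of -0.077 was 0.0019 with the mean of probe sets, -0.14 without s or x types, -0.032 with arrays centred, -0.047 for standard subunits only (chosen after seeing the data) and -0.089 to -0.039 leaving out 1 array. The large minus small difference of -0.039 was -0.15 without s or x types, -0.076 with the mean of probe sets, -0.088 for genes above the median level and -0.082 to 0.0073 leaving out 1 array. For bright members, -0.062 became -0.11 with the mean of probe sets and -0.20 without s or x types, both chosen after seeing the data and both with arrays no longer apart. The large subunit median of -0.12 kept its direction, at -0.16 to -0.060 leaving out 1 array, -0.078 with arrays centred and -0.18 without s or x types.

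Of 454 values of 33 named members, under 6 alternatives that leave out 1 array and 8 others, 132 equalled the reported value, most because the setting cannot change a difference; of the other 322, 297 kept their direction, 24 in 12 genes turned and 1, Rpl41 after quantile normalization, was 0; the causes were not tested. With the mean of probe sets Rpl13a was -0.20, Rpl41 -0.51, Rps24 0.037, Rps27l 0.21 and Rps4x 0.039. Without s or x types Rpl13a was -0.11, Rpl35 -0.26, Rpl41 -1.47, Rps20 -0.31 and Rps24 0.25. Rps4x was 0.0022 with array weights and 0.044 with arrays centred, and Rps28 was -0.047 after quantile normalization. Leaving out 1 array, Rpl22l1 ran from -0.22 to 0.042, Rpl39l from -0.32 to 0.011, Rpl7 from -0.16 to 0.0025, Rps20 from -0.027 to 0.043, Rps24 from -0.14 to 0.0032, Rps25 from -0.13 to 2.09 and Rps4x from -0.0081 to 0.0055.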
